A study of Mus musculus with 12 samples.

Results

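The receptors that read antibody, and the adaptors and enzymes through which they signal, were followed in the stroke brain as a set of 9 genes out of the 49315 in the count table. They were taken by symbol: the activating IgG receptors *Fcgr1*, *Fcgr3* and *Fcgr4*, the inhibitory IgG receptor *Fcgr2b*, the neonatal Fc receptor *Fcgrt*, the adaptor chains *Fcer1g* and *Tyrobp*, the kinase *Syk* and the phospholipase *Plcg2*. Each symbol matched 1 Ensembl identifier, and all 9 passed the filter on low counts.

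The table comes from bulk RNA-sequencing of brain tissue taken 14 d post-stroke, 1 library per mouse, from 6 WT and 6 *Tet2*-KO mice. The names stand for the donor marrow. The paper's results speak of whole brains, while its discussion speaks of whole hemispheres. All recipients were male CD45.1 Pep Boy mice with intact *Tet2*, 8 to 12 weeks old at head-shielded irradiation, and the stroke, a 30 min occlusion of the middle cerebral artery, followed 8 to 10 weeks later. In both groups 90% of the marrow came from CD45.1 *Tet2*+/+ donors. The remaining 10%, from CD45.2 donors, was *Tet2*+/+ for WT mice and *Tet2*-/- for *Tet2*-KO mice, so the recipients and most of the marrow kept the gene throughout. For the knockout group the labels disagree in 1 field: titles and genotype give the knockout, which was followed here, but the treatment field speaks of control cells. Unstroked brains and brains of untransplanted mice were not analysed here. Library totals were 12000261 to 15340787 counts with WT BM cells and 12625047 to 21049763 with *Tet2*-KO BM cells.

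Fc receptors bind the constant stem of antibodies. Most activating IgG receptors have no signalling tail of their own and pair with the FcRγ chain, encoded by *Fcer1g*, which carries an immunoreceptor tyrosine-based activation motif (ITAM). DAP12, encoded by *Tyrobp*, is a related ITAM adaptor for TREM2 and other myeloid receptors. When receptors cluster, Src family kinases phosphorylate the ITAM, SYK docks on it, and PLCγ2 and other effectors pass the signal on. FcγRIIB, the product of *Fcgr2b*, carries an inhibitory motif (ITIM) instead and recruits phosphatases, and FcRn, the product of *Fcgrt*, pairs with β2-microglobulin to recycle IgG. In brain these genes are known mainly from microglia and other phagocytes, while FcRn is also known from endothelium.

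Some of the genes lie close together. In GENCODE M21 on GRCm38 (mm10), *Fcgr2b* (chr1:170958617-170976547, minus strand), *Fcgr4* (chr1:171018920-171029761, plus strand), *Fcgr3* (chr1:171051174-171064935, minus strand) and *Fcer1g* (chr1:171229572-171234365, minus strand) occupy a stretch of 276 kb with 17 annotated genes. The others are apart: *Fcgr1* at chr3:96282909-96293969 (minus strand), *Tyrobp* at chr7:30413760-30417585 (plus strand), *Fcgrt* at chr7:45092990-45103851 (minus strand), *Plcg2* at chr8:117498291-117635142 (plus strand) and *Syk* at chr13:52583173-52648792 (plus strand).

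The promoters of the 4 IgG receptors are shown because these receptors form a family, 3 of them in a shared locus, with an inhibitory member beside activating ones. Each window runs 5′ to 3′ on the strand of its gene, from 250 bases before to 50 bases after a RefSeq start on GRCm38.p6. Capitals mark 2 motifs searched on both strands: GAGGAA, the core bound by the myeloid factor PU.1 (on the other strand it reads TTCCTC), and TTCNNNGAA (its own reverse), the core bound by STAT factors.
*Fcgr1* (chr3:96293920-96294219, minus strand): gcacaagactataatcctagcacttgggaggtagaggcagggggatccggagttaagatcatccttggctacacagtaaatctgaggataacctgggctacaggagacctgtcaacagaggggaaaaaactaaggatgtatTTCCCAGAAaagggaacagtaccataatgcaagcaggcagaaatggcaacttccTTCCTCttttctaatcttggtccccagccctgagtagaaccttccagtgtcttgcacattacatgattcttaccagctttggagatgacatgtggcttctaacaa
*Fcgr3* (chr1:171059354-171059653, minus strand): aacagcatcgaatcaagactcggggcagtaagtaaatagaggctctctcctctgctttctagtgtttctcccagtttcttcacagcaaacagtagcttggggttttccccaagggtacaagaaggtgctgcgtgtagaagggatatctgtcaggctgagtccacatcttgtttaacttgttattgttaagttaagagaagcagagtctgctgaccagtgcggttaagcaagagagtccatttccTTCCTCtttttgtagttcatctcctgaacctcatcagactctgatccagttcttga
*Fcgr4* (chr1:171018676-171018975, plus strand): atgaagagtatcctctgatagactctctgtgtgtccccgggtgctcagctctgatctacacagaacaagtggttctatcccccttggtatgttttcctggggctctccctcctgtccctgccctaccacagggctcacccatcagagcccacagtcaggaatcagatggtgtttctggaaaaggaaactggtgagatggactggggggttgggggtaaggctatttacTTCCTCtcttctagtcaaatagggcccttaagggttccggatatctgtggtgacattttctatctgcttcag
*Fcgr2b* (chr1:170976022-170976321, minus strand): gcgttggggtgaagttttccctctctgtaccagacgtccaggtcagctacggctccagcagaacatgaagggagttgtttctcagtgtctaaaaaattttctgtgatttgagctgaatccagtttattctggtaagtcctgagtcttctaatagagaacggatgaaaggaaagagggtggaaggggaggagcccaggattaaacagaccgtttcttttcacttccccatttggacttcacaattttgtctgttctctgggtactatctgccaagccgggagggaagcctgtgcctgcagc

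In all 3 activating receptors the TTCCTC form of the first motif stood shortly before the start, with its first base at position -55 in *Fcgr1*, -6 in *Fcgr3* and -22 in *Fcgr4*, counted from the start as position 1 with no position 0. *Fcgr3* has another RefSeq start, from which the same motif is at -15. The *Fcgr2b* window held neither motif. *Fcgr1* also held TTCNNNGAA at position -109, and no match overlapped a match of the other motif. Windows were found for 8 of the 9 genes, 10 in all, and GAGGAA was present in those of 4 genes, the fourth being a second start of *Syk*. Of all 32817 RefSeq windows of 300 bases, 28.3% held GAGGAA and 8.29% held TTCNNNGAA. These are matches of letters, and binding was not measured.

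CPM, the depth-corrected unit used below, was computed with library sizes scaled by TMM. To set genes beside each other, CPM was divided by the length of the merged exons in kb. On that scale the adaptors led in WT brains, with *Tyrobp* at 115 ± 40.8 (SD, n = 6) and *Fcer1g* at 91.2 ± 30.1 (SD, n = 6) CPM per kb. Among the IgG receptors *Fcgr3* stood highest at 33.6 ± 8.06 (SD, n = 6), and its SD range overlapped neither that of *Fcer1g* above it nor that of *Fcgr2b* below it at 11.0 ± 3.38 (SD, n = 6). Below that, *Fcgrt*, *Fcgr1*, *Plcg2*, *Fcgr4* and *Syk* followed between 9.59 and 4.41 CPM per kb, with SD ranges that overlapped from each gene to the next. In *Tet2*-KO brains the order was the same except that *Fcgrt*, at 7.03 CPM per kb, stood above *Fcgr2b*, at 4.82, and every pair of neighbours in the order had overlapping SD ranges.

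All 9 genes had a lower mean in *Tet2*-KO than in WT brains, at between 41.75% and 73.23% of the WT mean, with a median log2 fold change of -0.88 where the median of all 20290 tested genes was 0.010. Below an unadjusted p of 0.05 (edgeR quasi-likelihood test) stood 9 of 9, against 12.2% of all tested genes that were lower at that p and 23.1% in either direction. None passed a Benjamini-Hochberg adjusted p of 0.05 over all tested genes, where adjusted p lay between 0.136 and 0.194 and where 0.0246% of all tested genes passed. Other tests on the same counts placed the threshold elsewhere. The DESeq2 Wald test on the same genes called *Syk* alone (adjusted p = 0.0433, where 5.13% of genes were called lower), or none of the 9 when run on the whole table (lowest adjusted p of the 9 0.0547, where 3.71% were called lower), and limma-voom with weights for library quality called all 9 (adjusted p at most 0.0441, where 7.01% were called lower). All 9 were below 0 in each of these tests. In bulk tissue, fewer cells that express these genes and less RNA per cell cannot be told apart.

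**Figure D1:**
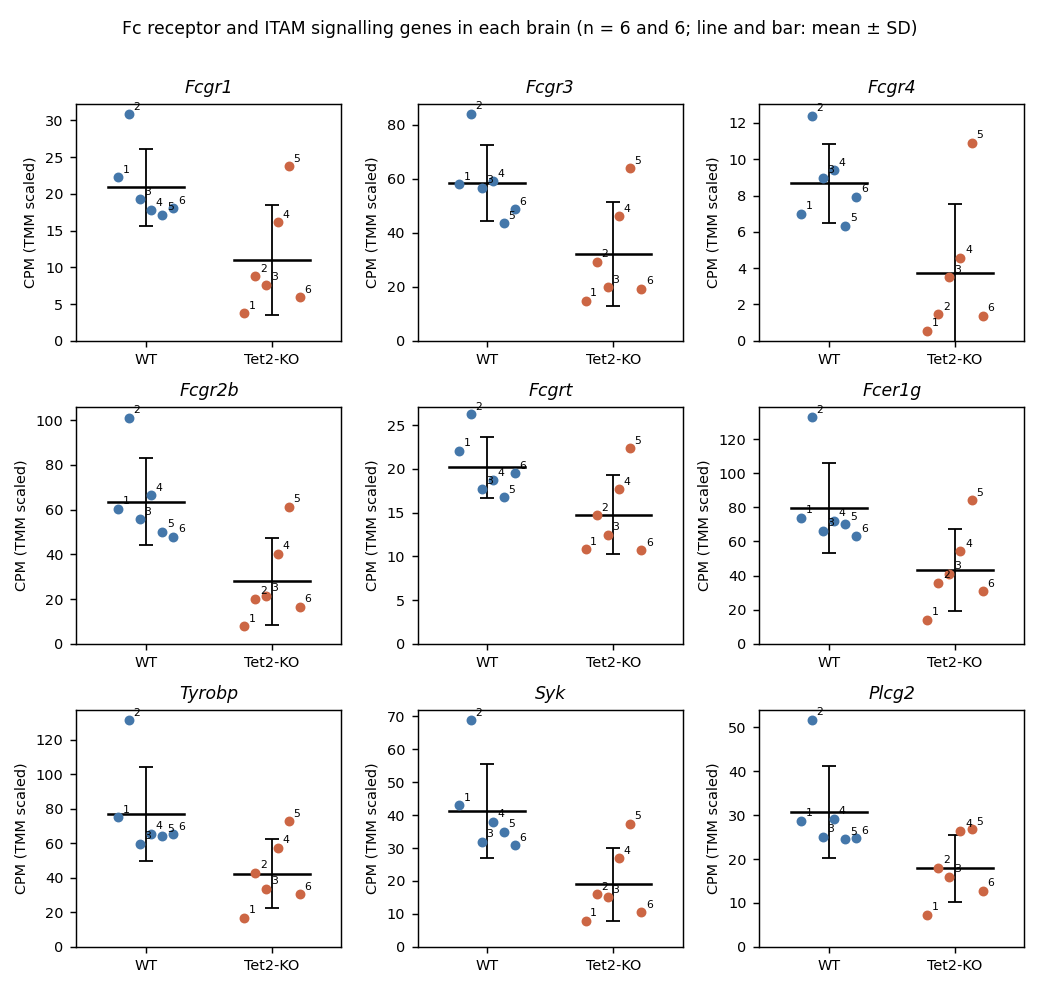
CPM of each of the 9 genes in each brain, with WT in blue, *Tet2*-KO in orange, replicate numbers beside the points, and the line and bar giving mean and SD (n = 6 per group; the lower bar of *Fcgr4* is cut at 0). WT replicate 2 is the highest WT brain and *Tet2*-KO replicate 5 the highest *Tet2*-KO brain in all 9 panels.

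The spread between brains had the same shape in nearly every gene. *Tet2*-KO replicates 1, 2, 3 and 6 were below every WT brain in all 9 genes, and replicate 4 was below every WT brain in 6 of them. *Tet2*-KO replicate 5 was below every WT brain in none and above the WT median in 8. As a median over the 9 genes, the *Tet2*-KO brains stood at 19.2% (replicate 1), 44.8% (replicate 2), 40.3% (replicate 3), 74.9% (replicate 4), 106% (replicate 5) and 32.9% (replicate 6) of the WT mean. WT replicate 2 was the highest WT brain in all 9, at a median of 159% of the WT mean. In no gene did all 6 *Tet2*-KO brains fall below all WT brains, an arrangement found in 0.641% of tested genes. Without *Tet2*-KO replicate 5, edgeR called 7 of the 9 (all but *Tyrobp* and *Plcg2*), where 7.3% of all genes were called lower. It left 2 of the 9 below an unadjusted p of 0.05 without WT replicate 2 (where 7.92% of all genes were lower at that p) and without *Tet2*-KO replicate 3 (9.77%) or 6 (9.66%), and 5 of the 9 without *Tet2*-KO replicate 1 (9.82%) or 2 (9.94%). With both WT replicate 2 and *Tet2*-KO replicate 5 left out, 9 of 9 were below the unadjusted p and 3 were called (*Fcgr4*, *Fcgrt* and *Syk*), where 12.1% of all genes were lower at that p and 4.94% were called lower.

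*Fcgr1* encodes FcγRI, the high-affinity IgG receptor. It ranged from 17.2 through a median of 18.6 to 30.8 CPM in WT brains and from 3.72 through 8.20 to 23.8 in *Tet2*-KO brains. The ranges overlapped through replicate 5 alone, and the next *Tet2*-KO brain, replicate 4, stood at 16.2. The log2 fold change was -0.93 (SE 0.39, 95% interval -1.80 to -0.064, edgeR adjusted p = 0.192).

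*Fcgr3* encodes FcγRIII, a low-affinity receptor that depends on the FcRγ chain. WT brains ran from 43.6 through a median of 57.4 to 84.1 CPM, and *Tet2*-KO brains from 14.8 through 24.6 to 63.9. Here replicates 4 and 5 of the *Tet2*-KO group lay within the WT range and the other four below it. This is a log2 fold change of -0.86 (SE 0.35, edgeR adjusted p = 0.180).

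*Fcgr4* encodes FcγRIV, a receptor of IgG2 subclasses known from monocytes, macrophages and neutrophils. It was the least counted gene of the set, with 77 to 173 counts in WT and 9 to 139 in *Tet2*-KO libraries. In CPM it ran from 6.35 through a median of 8.46 to 12.4 in WT brains and from 0.558 through 2.48 to 10.9 in *Tet2*-KO brains, and in the *Tet2*-KO group its highest over lowest value was the widest of the 9. *Tet2*-KO replicates 1, 2 and 6 were at or below 1.46 CPM. The log2 fold change was -1.26 (SE 0.54, edgeR adjusted p = 0.194), and it was -1.90 without *Tet2*-KO replicate 5 (adjusted p = 0.0190).

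*Fcgr2b*, the inhibitory receptor, was at 47.9 to 101 CPM (median 58.0) in WT brains and at 7.93 to 61.2 (median 20.7) in *Tet2*-KO brains, with replicate 5 alone inside the WT range. Its log2 fold change was -1.19 (SE 0.42, 95% interval -2.13 to -0.26, edgeR adjusted p = 0.150), and its unadjusted p stayed below 0.05 with each library left out in turn. An antisense gene, *Gm38204*, overlaps 155 exon bases of *Fcgr2b*, and the strand setting of the counting is not given in the sources used here. Of the 100-base stretches of its transcripts, 1.4% also occur in other genes, 44 of them in *Fcgr3*, where they make up 2.54% of the stretches. The other 7 genes shared no such stretch.

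*Fcgrt*, the FcRn heavy chain, had the smallest difference of the set. WT brains lay between 16.7 and 26.3 CPM (median 19.1) and *Tet2*-KO brains between 10.7 and 22.4 (median 13.6), with 4 of 6 *Tet2*-KO brains below every WT brain. The log2 fold change was -0.45 (SE 0.18, edgeR adjusted p = 0.171).

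The ITAM adaptors had close fold changes. *Fcer1g* was at 62.9 to 133 CPM (median 71.1) in WT and 14.1 to 84.1 (median 38.4) in *Tet2*-KO brains, or -0.88 on the log2 scale (SE 0.36, edgeR adjusted p = 0.186). *Tyrobp* was at 59.6 to 131.5 CPM (median 65.5) in WT and 16.9 to 72.9 (median 38.3) in *Tet2*-KO brains, or -0.86 on the log2 scale (SE 0.33, edgeR adjusted p = 0.171). In both genes 5 of 6 *Tet2*-KO brains were below every WT brain and replicate 5 was not.

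*Syk*, the kinase that binds phosphorylated ITAMs, had the smallest p of the 9. WT brains ran from 30.8 through a median of 36.4 to 68.9 CPM and *Tet2*-KO brains from 7.93 through 15.5 to 37.3, again with replicate 5 alone inside the WT range. The log2 fold change was -1.13 (SE 0.37, 95% interval -1.95 to -0.31, edgeR adjusted p = 0.136), with values from -1.42 to -0.92 over the fits that left out a library, all 12 of them below an unadjusted p of 0.05. *Plcg2*, the phospholipase of this pathway in myeloid and B cells, was at 24.5 to 51.7 CPM (median 26.9) in WT and 7.31 to 26.8 (median 17.0) in *Tet2*-KO brains. There replicates 4 and 5 lay within the WT range, and the log2 fold change was -0.78 (SE 0.31, edgeR adjusted p = 0.176).

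**Figure D2:**
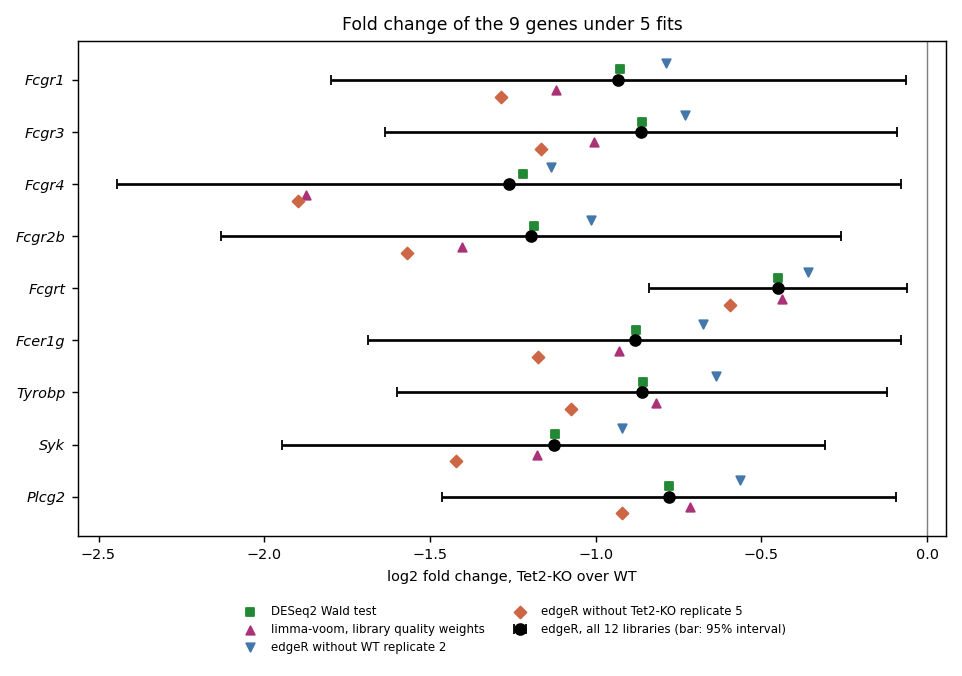
Log2 fold change of *Tet2*-KO over WT for each gene, with the edgeR value and its 95% interval in black and the values of other tests or of fits without a library in colour. All points lie below 0, between -0.36, the value of *Fcgrt* when WT replicate 2 was left out, and -1.90, that of *Fcgr4* when *Tet2*-KO replicate 5 was.

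Other genes of the chromosome 1 stretch were read beside the members. For the 5 further tested genes (*Cfap126*, *Sdhc*, *Pcp4l1*, *Nr1i3* and *Tomm40l*), the median log2 fold change was -0.067. All 5 lie between *Fcgr3* and *Fcer1g*. No tested gene outside the set lies among *Fcgr2b*, *Fcgr4* and *Fcgr3*, so these values do not cover the receptor part of the stretch. *Cfap126*, a cilium gene, was at -0.42 (edgeR adjusted p = 0.190) and below an unadjusted p of 0.05, and the other four were not (edgeR adjusted p 0.496 to 0.773). *Sdhc*, a subunit of mitochondrial succinate dehydrogenase, was at 60.3 CPM in WT and 58.6 in *Tet2*-KO brains, a level close to that of *Fcgr3* in the WT group.

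Ratios between genes of the same library show whether the members differed by unequal amounts, and they do not depend on scaling between libraries. For this, 7 pairs were compared as log2 ratios of counts with 0.5 added to each. All regroupings of the 12 libraries into 6 and 6 were enumerated (exact permutation, two-sided, smallest possible p 0.00216), with Benjamini-Hochberg adjustment over the 7 pairs. The ratio of *Syk* to *Tyrobp* was -0.90 ± 0.11 (SD, n = 6) in WT and -1.21 ± 0.22 (SD, n = 6) in *Tet2*-KO libraries, lower by -0.31 (exact p = 0.00433, adjusted p = 0.0303), with 5 of 6 *Tet2*-KO libraries below every WT library. With each library left out in turn its exact p was at most 0.0130, while the adjusted p ranged from 0.0303 to 0.0909 and passed 0.05 in 3 of the 12. With neither WT replicate 2 nor *Tet2*-KO replicate 5 the difference was -0.37 (exact p = 0.00794, adjusted p = 0.0556). That exact p is the smallest possible with 5 libraries per group, too large for a ratio on its own to pass after adjustment. The pairs were chosen with earlier results of these data known. The ratio of *Plcg2* to *Tyrobp* differed by 0.097 the other way (exact p = 0.171, adjusted p = 0.239).

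The inhibitory receptor was set against an activating one in the ratio of *Fcgr2b* to *Fcgr3*. It ran from -0.030 to 0.26 in WT and from -0.90 to 0.11 in *Tet2*-KO libraries, with 5 of 6 *Tet2*-KO libraries below every WT library. The difference of -0.41 did not pass after adjustment (exact p = 0.0152, adjusted p = 0.0530). For *Fcgr4* to *Fcgr3* the difference was -0.76 (exact p = 0.0758, adjusted p = 0.133), and the *Tet2*-KO libraries were spread on both sides of the WT range, 4 below it at -3.33 to -4.66 and 2 above it. *Fcgr1* to *Fcgr3* differed by -0.14 (exact p = 0.253) and *Fcer1g* to *Tyrobp* by -0.075 (exact p = 0.468). *Fcgrt* to *B2m*, the FcRn heavy chain to its light chain, was higher by 0.41 (exact p = 0.0563, adjusted p = 0.131), with 3 *Tet2*-KO libraries above every WT library. *B2m* itself, which also serves MHC class I, was at 598.5 ± 165 CPM (SD, n = 6) in WT and 353 ± 181 (SD, n = 6) in *Tet2*-KO brains.

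**Figure D3:**
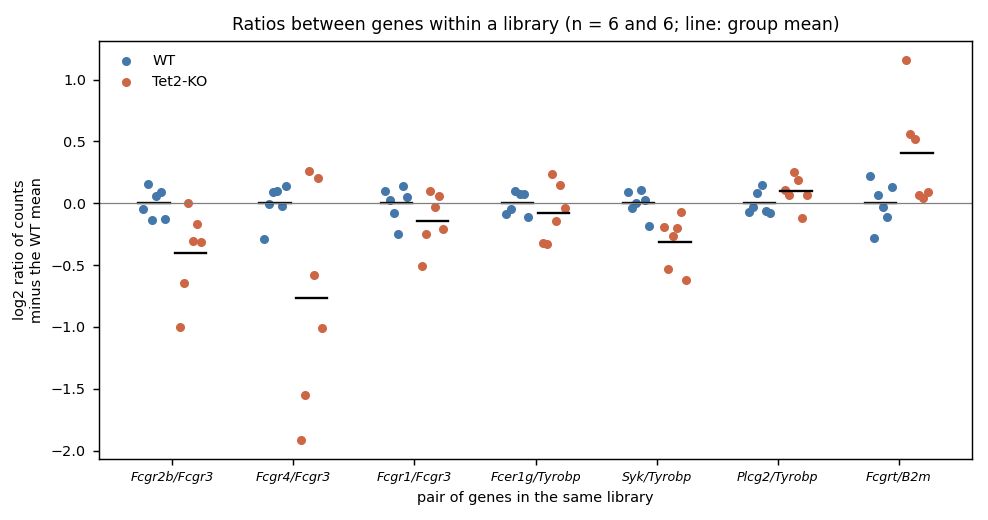
Log2 ratio of the counts of 2 genes in the same library, minus the WT mean of that ratio, for 7 pairs (WT blue, *Tet2*-KO orange, black line the group mean, n = 6 per group). In *Syk*/*Tyrobp* and in *Fcgr2b*/*Fcgr3* 5 of 6 *Tet2*-KO points lie below all WT points, and in *Fcgr4*/*Fcgr3* they scatter to both sides.

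Beyond the 9 genes, 139 genes of Fc receptor and ITAM signalling were listed by role, of which 137 were in the table and 107 were tested. Of these, 97 had a log2 fold change below 0, against 47.7% of all tested genes, and the median was -0.74. At an unadjusted edgeR p of 0.05 there were 67 lower, against 12.2% of all tested genes, and 2 higher (*Ighg2c* and *Src*). None passed after adjustment, while DESeq2 on the filtered genes called 26 and limma-voom 58 (all lower but *Src*), where these tests called 5.13% and 7.01% of all genes lower. Leaving out a library moved the 67 to between 42, when WT replicate 2 was out (7.92% of all genes), and 81, when *Tet2*-KO replicate 5 was out (14.6%). In the latter fit 52 were called, all lower, where 7.3% of all genes were. With neither of those libraries 73 were lower at the unadjusted p (12.1% of all genes) and 36 were called (4.94%).

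The ligands of the receptors are immunoglobulins, and their genes differed among themselves. *Igkc*, the κ light chain constant region, was at 2.26 to 5.79 CPM in WT brains and 0.186 to 1.39 in *Tet2*-KO brains, all of them below every WT brain. Its log2 fold change was -2.35 (SE 0.42, edgeR adjusted p = 0.0816, DESeq2 adjusted p = 0.00113), from 278 counts in the WT libraries together and 64 in the *Tet2*-KO libraries. *Ighg2c*, an IgG2 heavy chain gene, went the other way at 1.29 ± 0.40 CPM in WT and 1.96 ± 0.60 in *Tet2*-KO brains (SD, n = 6; log2 fold change 0.62, edgeR adjusted p = 0.161). *Ighm* was at 33.9 ± 3.04 and 29.6 ± 2.10 CPM (SD, n = 6). *Ighg2b* was too low to test, with 21 counts in the WT and 5 in the *Tet2*-KO libraries together, and no library held a count of *Ighe*. Of the 5 tested of 12 listed, 3 were lower at the unadjusted p (*Igkc*, *Ighd* and *Ighm*), against 12.2% of all tested genes. *Ighd* was at -1.16 on the log2 scale (edgeR adjusted p = 0.112). Only 1, *Ighg2c*, was higher, and none was higher at that p without WT replicate 1, WT replicate 2 or *Tet2*-KO replicate 3.

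Receptors that signal through *Fcer1g*, *Tyrobp* or a tail with a related motif had the lowest median among these role lists of more than 3 tested genes. It was -1.15 over 18 tested of 28, with 14 lower at the unadjusted p, against 12.2% of all tested genes. *Clec4e*, which encodes the FcRγ-coupled lectin Mincle, was at 1.35 to 5.31 CPM in WT and 0 to 1.80 in *Tet2*-KO brains (log2 fold change -2.87, SE 0.56, edgeR adjusted p = 0.110). *Clec7a*, which encodes the β-glucan receptor Dectin-1, was at 54.2 ± 23.3 and 23.4 ± 15.8 CPM (SD, n = 6), or -1.22 on the log2 scale (edgeR adjusted p = 0.155). *Trem2*, the microglial receptor that pairs with DAP12, was at 64.0 ± 22.6 and 40.2 ± 17.8 CPM (SD, n = 6), a log2 fold change of -0.67 that missed the unadjusted threshold (edgeR adjusted p = 0.233). *Trem1* was too low to test, with 67 counts in the WT and 15 in the *Tet2*-KO libraries together. *Siglech*, which also pairs with DAP12, was at -0.0034 on the log2 scale (edgeR adjusted p = 0.991).

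Among the kinases, 6 of 12 tested were lower at the unadjusted p, against 12.2% of all tested genes. Of the Src family members known from myeloid cells, *Fgr* was at -1.74 and *Lyn* at -0.78 on the log2 scale, both below the unadjusted threshold, with edgeR adjusted p of 0.116 and 0.165. The widely expressed members *Fyn* and *Yes1* were at 0.021 and -0.014 (edgeR adjusted p = 0.863 and 0.922), and *Src* was at 0.16 (adjusted p = 0.132), above 0 at the unadjusted p. *Btk*, a Tec family kinase that acts on PLCγ2, was at -0.74 (edgeR adjusted p = 0.259).

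Adaptors and effectors downstream of SYK had 21 of 33 lower at the unadjusted p, against 12.2% of all tested genes, with a median of -0.51. The 21 became 9 without WT replicate 2 (7.92% of all genes) and 12 without *Tet2*-KO replicate 2 (9.94%) or 6 (9.66%). *Lcp2*, which encodes the scaffold SLP-76, was at -0.90 (edgeR adjusted p = 0.157) and *Vav1*, a guanine nucleotide exchange factor, at -0.87 (adjusted p = 0.165), both below the unadjusted threshold. *Card9*, the adaptor that links SYK to NF-κB, was at 8.37 ± 1.44 and 7.02 ± 1.73 CPM (SD, n = 6; log2 fold change -0.25, edgeR adjusted p = 0.346). *Plcg1*, the broadly expressed relative of *Plcg2*, was at 0.040 (edgeR adjusted p = 0.610). Among other broadly expressed genes of this list, *Vav2* and *Grb2* were lower at the unadjusted p, at -0.51 and -0.11 (edgeR adjusted p = 0.131 and 0.167). *Rac1* and *Sos1* were not (edgeR adjusted p = 0.994 and 0.997).

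The inhibitory arm, ITIM receptors with their phosphatases and adaptors, had 17 of 30 tested genes lower at the unadjusted p, against 12.2% of all tested genes. The median was -0.59. The 17 became 12 without WT replicate 2 (7.92% of all genes) or *Tet2*-KO replicate 6 (9.66%). *Ptpn6*, the phosphatase SHP-1, was at 34.9 ± 8.78 and 19.1 ± 9.20 CPM (SD, n = 6; log2 fold change -0.88, edgeR adjusted p = 0.150). *Inpp5d*, the lipid phosphatase SHIP1 that FcγRIIB recruits, was at -0.62, *Cd33* at -0.56 and *Sirpa*, which neurons also express, at -0.16, none of them below the unadjusted threshold (edgeR adjusted p = 0.232, 0.256 and 0.222). *Ptpn11*, the broadly expressed phosphatase SHP-2, was at 0.017 (edgeR adjusted p = 0.869). *Csk* and *Inppl1*, also broadly expressed, were lower at the unadjusted p, at -0.34 and -0.29 (edgeR adjusted p = 0.160 and 0.176). *Lilrb4a* and *Lilrb4b* were listed but not matched.

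Other Fc receptors were few. *Fcrls*, an Fc receptor-like gene known from microglia, was at 127 ± 39.6 and 75.4 ± 34.6 CPM (SD, n = 6; log2 fold change -0.75, edgeR adjusted p = 0.193). That list also holds *B2m*, the FcRn light chain, and 4 of its 6 tested genes were lower at the unadjusted p (*Fcrls*, *Fcrl1*, *Trim21* and *B2m*). That count rested on single libraries: it was 0 without WT replicate 2, 1 without *Tet2*-KO replicate 1, 2, 3 or 6, and 2 without WT replicate 1 or 6. The high-affinity IgE receptor chains *Fcer1a* and *Ms4a2* did not pass the filter. Of the lymphocyte ITAM chains, 3 of 6 were tested: *Cd3e* at -1.32, *Cd79b* at -1.28 and *Cd247* at -0.070 (edgeR adjusted p = 0.128, 0.112 and 0.896).

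Markers of the cells that could carry these genes were read in the same libraries. At an unadjusted edgeR p of 0.05, 12.2% of all tested genes were lower, the share to set beside the counts below. Of 9 tested monocyte and macrophage markers, 8 were lower at the unadjusted p with a median log2 fold change of -1.65, and their summed level was 408 to 1050 CPM in WT and 34.5 to 536 in *Tet2*-KO brains. Of 9 homeostatic microglia markers 1 was lower (*Olfml3*, log2 fold change -0.65, edgeR adjusted p = 0.194), a count that was 0 to 3 with each library left out, the median was -0.25, and the sums were 886 to 1570 and 416 to 1120 CPM. *P2ry12* was at 0.047 and *Tmem119* at -0.13 (edgeR adjusted p = 0.849 and 0.754). Border-associated macrophage markers had 3 of 6 lower (*Mrc1*, *Pf4* and *F13a1*), with sums of 33.1 to 58.3 against 14.3 to 43.1 CPM. *Lyve1* and *Cd163* of that list were at 0.22 and 0.041 (edgeR adjusted p = 0.668 and 0.896). Of 10 neutrophil markers 5 were tested and all 5 were lower (*S100a8*, *S100a9*, *Mmp8*, *Mmp9* and *Cxcr2*), with sums of 10.9 to 29.0 against 4.18 to 9.49 CPM. Of them, *S100a8* and *S100a9* passed the adjusted threshold in the fit of all 12 libraries (edgeR adjusted p = 0.0364 for both). With each library left out in turn *S100a8* passed in 3 of 12 fits, those without WT replicate 2, WT replicate 6 or *Tet2*-KO replicate 5, and *S100a9* in these and in the fit without WT replicate 5, with adjusted p of up to 0.191 and 0.189. Neutrophil genes *Ly6g*, *Ngp*, *Camp*, *Ltf* and *Retnlg* did not pass the filter. Of the T and NK cell markers 4 of 5 were lower (*Cd4*, *Cd8a*, *Cd5* and *Trac*, sums 14.6 to 23.8 against 9.38 to 13.6 CPM). Of the B and plasma cell markers 2 of 2 were lower (*Pax5* and *Pou2af1*, sums 7.34 to 14.2 against 1.88 to 8.55 CPM). The single tested mast cell and basophil marker, *Hdc*, was lower (list sums 4.78 to 12.1 against 1.85 to 5.14 CPM), with *Mcpt8* at 0 in every library. Endothelial markers had 3 of 6 lower (*Cldn5*, *Cdh5* and *Emcn*, sums 217 to 260 against 203 to 238 CPM).

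Neurons, the main cells of the tissue, had all 8 markers higher at the unadjusted p with a median of 0.24, at 3820 to 5110 CPM in *Tet2*-KO and 2930 to 4200 in WT brains. Below that p stood 23.1% of all tested genes in either direction, including the 12.2% that were lower. Of the 8 neuron markers, 4 were higher at that p without *Tet2*-KO replicate 1 or 3, and 5 without WT replicate 1, WT replicate 2 or *Tet2*-KO replicate 6. Astrocyte markers (1 of 6 higher, *Slc1a2*, none lower) and oligodendrocyte markers (0 of 6 in either direction at an unadjusted edgeR p of 0.05) had medians of -0.12 and 0.013. Their sums overlapped between the groups, as did those of the platelet markers, of which 1 of 2 was higher (*Gp1bb*, sums 7.68 to 10.5 CPM in WT and 8.39 to 11.1 in *Tet2*-KO brains). Sums also overlapped for monocyte and macrophage, homeostatic microglia, border-associated macrophage, B and plasma cell, mast cell and basophil, endothelial and neuron markers. Those of the neutrophil and of the T and NK cell markers did not. With each library left out in turn, the single higher astrocyte and platelet markers were no longer higher at that p in 10 and 5 of the 12 fits. *Tet2*-KO replicate 5 had the highest monocyte and macrophage sum of its group (536 CPM), WT replicate 2 the highest of all (1050), and *Tet2*-KO replicate 1 the lowest (34.5). The same libraries held these places in the homeostatic microglia sums (1124, 1568 and 416.1 CPM) and the border-associated macrophage sums (43.07, 58.31 and 14.25 CPM). Neutrophil sums and B and plasma cell sums had the same highest libraries but another lowest one. For the Fc receptor and ITAM genes, *Tet2*-KO replicate 5 and WT replicate 2 were likewise the highest of their groups in all 9. *Tet2*-KO replicate 1 was the lowest of its group in 8. The part of cell composition in the differences was not tested.

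**Figure D4:**
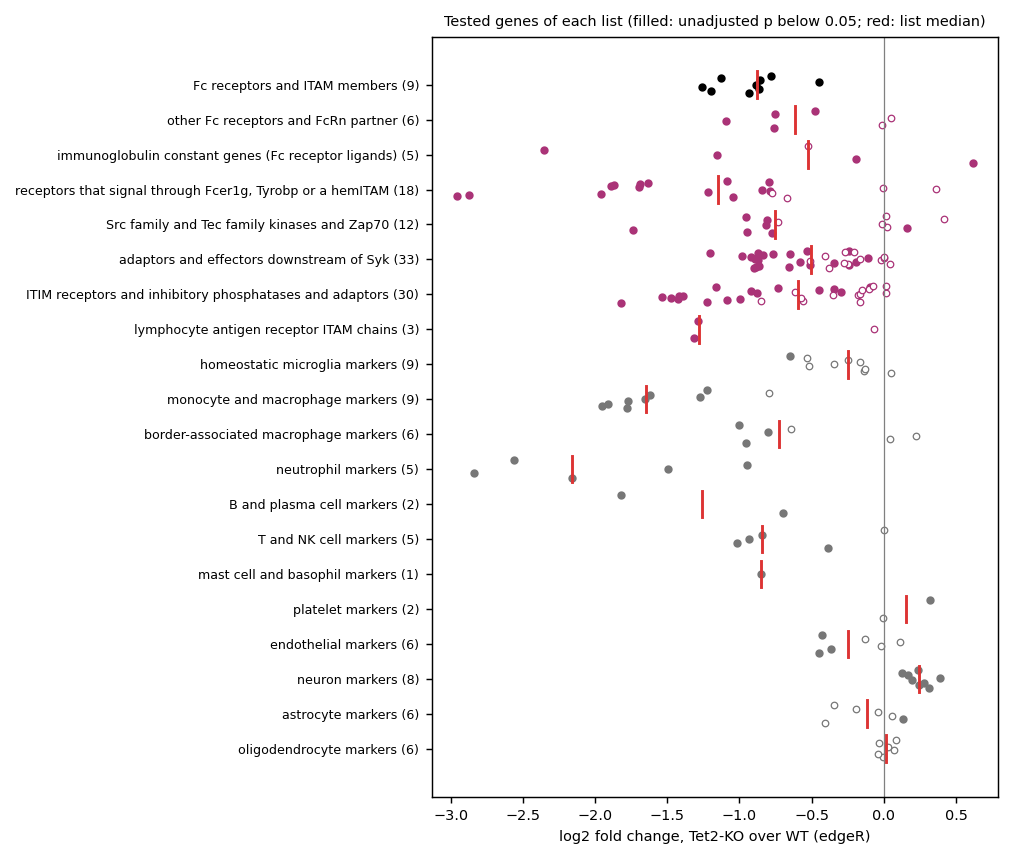
Log2 fold change (*Tet2*-KO over WT, edgeR) of every tested gene of the Fc receptor and ITAM lists and of the cell type markers, 1 point per gene, with the number tested in brackets, filled points below an unadjusted p of 0.05 and a red bar at the list median. The 9 genes centre on -0.88, between the monocyte and macrophage markers at -1.65 and the homeostatic microglia markers at -0.25. Border-associated macrophage (-0.724), T and NK cell (-0.845), mast cell and basophil (-0.85) and B and plasma cell markers (-1.26) lie in that span too.

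The 9 genes varied together within the groups as well. Over the 12 libraries, with each group's mean removed from log2 CPM, the correlation between pairs of them lay between 0.80 and 0.98 (36 pairs, median 0.95). This is a description, since each pair of values comes from the same library. Among 19092 tested genes outside the set with a mean of at least 1 CPM, those whose pattern was most like that of *Tyrobp* by the same measure were *Cd63*, a tetraspanin of late endosomes (r = 0.99), *Wasf2*, an actin regulator (r = 0.99), and *Gusb*, the lysosomal β-glucuronidase (r = 0.99). For *Fcgr4* they were *Ccr2*, the chemokine receptor of inflammatory monocytes (r = 0.98), *Msr1*, a macrophage scavenger receptor (r = 0.97), and *Ms4a6d* (r = 0.97). The log2 fold changes of these 3 were -1.78, -1.68 and -1.42, and those of *Cd63*, *Wasf2* and *Gusb* were -0.73, -0.38 and -0.91.

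**Figure D5:**
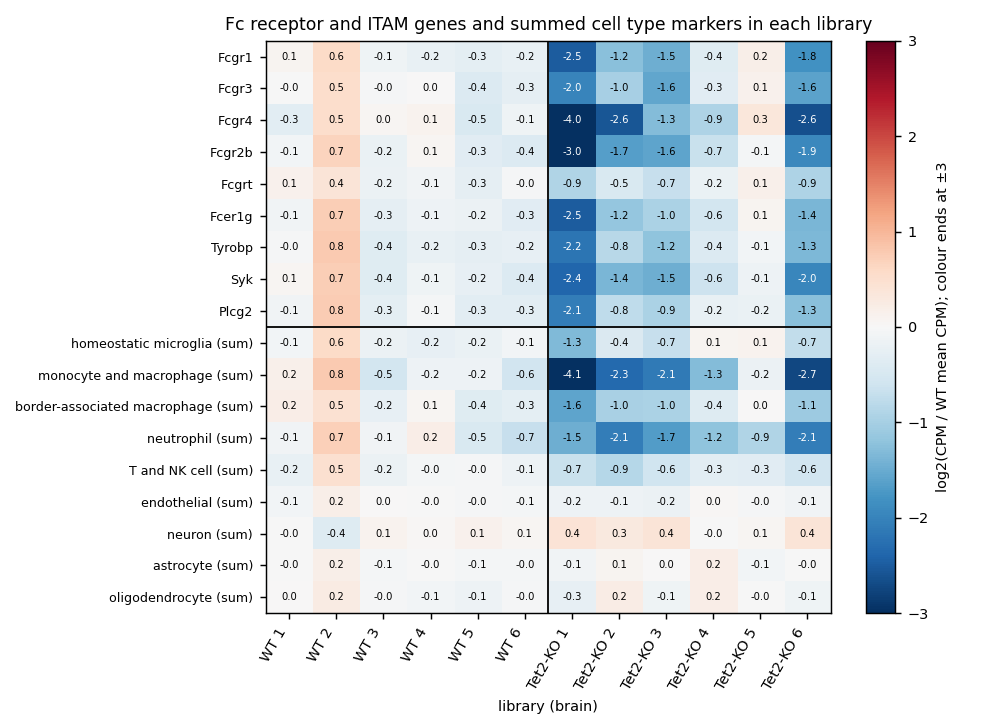
Level of each of the 9 genes (top) and of the summed markers of each cell type with at least 5 tested markers (bottom) in each of the 12 brains, as log2 of CPM over the WT mean, blue below and red above. *Tet2*-KO replicates 1, 2, 3 and 6 are blue through the 9 genes and the monocyte and macrophage row, replicate 5 is near 0 in both, and the neuron row moves the other way.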

How the data were processed

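RNA was extracted from the brains, ribosomal RNA was depleted, and paired reads were trimmed with Trimmomatic 0.36, aligned with STAR 2.5.2b to mm10 and counted with featureCounts of Subread 1.5.2, per the submitters' processing notes and the paper. The authors deposited whole-number counts per gene of uniquely mapped exonic reads, with no normalization. Annotation version and strand setting are not given in the sources used here. The table held 0 columns of other samples, and 48970 of its 49315 identifiers had a symbol in GENCODE M21.

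From these counts, genes kept by filterByExpr were scaled with TMM and tested with the robust quasi-likelihood F test of edgeR 4.0.16 in R 4.3.3 on all 12 libraries without covariates, with Benjamini-Hochberg adjustment over the genes tested and a threshold of 0.05. The SE is the log2 fold change over the square root of F. The authors used the DESeq2 Wald test, which was run here as an alternative (DESeq2 1.42.0), as were limma-voom (limma 3.58.1), other scalings and filters, a block by replicate number and each library left out. The tests were checked on simulated counts. Those were drawn independently for each gene and library, so a shift shared by many genes of a brain was not part of the check. Each library is a separate mouse, and all were sequenced on 1 lane. A count of a few reads leaves a wide sampling error, which the model includes.

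The 9 genes, the lists and the ratios were chosen with earlier results of these data known. Genes named besides are a fixed list of 22 with roles in this signalling (1 of them is not reported here), those most like *Tyrobp* and *Fcgr4*, and list members where a count is 5 or fewer. *Sdhc*, *Siglech*, *Fyn*, *Yes1*, *Plcg1*, *Ptpn11*, *P2ry12* and *Tmem119* were named after their values were seen. So were *Vav2*, *Grb2*, *Rac1*, *Sos1*, *Csk*, *Inppl1*, *Lyve1* and *Cd163*.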

Additional observations from a re-analysis of the deposited data

Results flagged for a closer look

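Within each group of 6 brains, the gap of the highest or lowest brain to its nearest neighbour was compared with the range of the group (Dixon's test at the 95% level) for the 9 genes and the other named genes, 60 groups in all. Chance gives about 1 such brain in 20 groups, and 16 were found, 15 of them WT replicate 2, always as the highest brain. Genes measured in the same brain are not independent. Of the 9 genes, 6 were among them: WT replicate 2 was at 30.8 CPM for *Fcgr1* (next WT brain 22.3), 101.1 for *Fcgr2b* (66.3), 132.8 for *Fcer1g* (73.8), 131.5 for *Tyrobp* (75.2), 68.85 for *Syk* (43.0) and 51.71 for *Plcg2* (29.2). The same brain stood apart at 109.0 CPM for *Trem2*, 100.9 for *Clec7a*, 71.51 for *Lyn*, 52.0 for *Ptpn6*, 150.9 for *Inpp5d*, 600.1 for *Sirpa*, 86.86 for *Cd33*, 932.4 for *B2m* and 205.9 for *Fcrls*. In the *Tet2*-KO group, replicate 5 stood apart for *Clec4e* at 1.804 CPM (next brain 0.471), from 23 counts.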

How the results depend on the processing

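No fold change of the 9 genes or of the other named genes changed sign under any alternative run, nor did a ratio. Of their values, 628 stayed on the same side of the threshold, 58 passed it where they had not and 11 no longer passed it. The number of all genes past the adjusted threshold, 5 in edgeR, was 1489 with DESeq2, 917 with DESeq2 on the whole table (added after seeing the data), 2013 with limma-voom, 44 with no filter on low counts, 0 with at least 10 counts in every library (edgeR, 4241 at an unadjusted p of 0.05) and 1554 with neither WT replicate 2 nor *Tet2*-KO replicate 5 (added after seeing the data). It ranged from 0 to 2257 with each library left out. Of the 9 genes, the number called, 0 in edgeR, was 1 with DESeq2, 9 with limma-voom and 3 without both of those libraries, and 0 to 7 with each library left out. The number below an unadjusted p of 0.05 ranged from 2 to 9. The number of ratios past the adjusted threshold, 1 of 7, was 0 without both libraries (exact permutation test, 3 below an unadjusted p of 0.05) and 0 to 5 with each library left out. Without both libraries the smallest possible exact p was too large for a ratio on its own to pass. With upper quartile scaling the median over all genes was 0.043 in place of 0.010 on the log2 scale, and that of the 9 genes -0.85 in place of -0.88. The cause of these differences was not tested. The filter of at least 10 counts removed *Fcgr4*, which had 9 counts in *Tet2*-KO replicate 1.

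Libraries with the same replicate number share only that number: the correlation of their deviations from the group means lay between -0.17 and 0.23 over the 6 pairs, and 1 of 6 libraries correlated best with its own number. With the replicate number as a block, edgeR called 0 genes (4329 at an unadjusted p of 0.05), 0 of the 9 genes were called and 9 were below an unadjusted p of 0.05, and the block left 0 of the 7 ratios past the adjusted threshold (sign-flip test, *Syk* to *Tyrobp* exact p = 0.0312, adjusted p = 0.146). With 6 pairs that exact p is the smallest this test can give, too large for a ratio on its own to pass after adjustment. Counts below about 10 in a library, as in *Clec4e*, *Trem1* and *Ighg2b*, limit what can be read from those genes.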
